A study of Homo sapiens with 6 samples.

Results

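Antisense RNA genes were read out of RNA sequencing of a human colorectal cancer cell line after silencing of the long noncoding RNA GLCC1, also called lncRNA-AF339830. A gene was included when its symbol in the count files ended in -AS1 and when at least 60 read pairs, summed over the 6 libraries, were counted on it. Of 761 symbols ending in -AS1 among the 56638 symbols of the files, 558 had a count and 249 reached this limit, and each was compared with its sense partner, the gene named before -AS1. The cells were passages 16-19 of a line that the labels name SW480 and the methods of the study DLD-1, and which line it was, was not tested. The 3 libraries titled control siRNA came from cells given a nonspecific siRNA, and the 3 titled lncRNA-AF339830 siRNA from cells given an siRNA against GLCC1, which by the genotype label was siRNA1 alone. They are called control libraries and GLCC1 siRNA libraries below, and a fold change is always GLCC1 siRNA over control siRNA. The library descriptions attach AF123 to the libraries titled control and NC to those titled lncRNA-AF339830 siRNA. Grouped by these descriptions, every fold change below would take the opposite sign. Nothing in the labels tells whether the 3 libraries of a group came from separate cultures, so that the p-values measure the spread between these libraries, which may be technical.

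Natural antisense RNAs are transcribed from the strand opposite to another gene, usually a protein-coding gene whose name they take with the ending -AS1. Some start back to back with their partner at a shared promoter and run away from it, and these are often renamed divergent transcripts with the ending -DT, whereas others run into or through the partner. Single members are known to guide chromatin regulators to the partner's promoter, to pair with the partner's messenger RNA or to bind microRNAs, while for most no function is known. In colorectal and other cancer cells, ZEB1-AS1, AFAP1-AS1, TMPO-AS1 and DLX6-AS1 are among the members that have been studied.

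The libraries were made without a mark of the strand by the kit that the labels name. Reads from a gene and from an antisense partner that shares its exons can therefore not be told apart, and the union mode of the counting leaves out pairs that lie on both genes. On genes, a library held from 11948790 to 19042516 read pairs. Pairs on no gene took 11.2% to 11.5% of each control library and 12.5% to 14.2% of each GLCC1 siRNA library, and pairs on more than 1 gene took between 8.85% and 8.89% against between 8.19% and 8.76%. The part of this in the changes of the antisense genes was not tested. The GLCC1 siRNA library with the fewest pairs, replicate 2, stood further from the other GLCC1 siRNA libraries than any control library from the other controls, with a chi-square per degree of freedom of 16.3 and 17.1 against at most 3.84. Of 8 markers of colon epithelium, all were detected, with a summed level of 4814 to 5234 counts per 1000000 pairs on genes after TMM scaling (CPM) in the control libraries and of 1959 to 2301 CPM in the GLCC1 siRNA libraries. The difference lay mostly in KRT8 and KRT18. Of 4 fibroblast markers COL1A2, DCN and LUM were at 0 in every library, and the summed level, all of it COL1A1, was 11.8 to 14.99 CPM in the control and 6.68 to 7.94 CPM in the GLCC1 siRNA libraries. Of 4 leukocyte markers PTPRC was at 0 in every library, and the sum, nearly all CD14, was 2.81 to 4.03 against 3.26 to 5.47 CPM. Of 3 endothelial markers PECAM1 and CDH5 were at 0, and the sum, all of it VWF, was 0.542 to 1.03 against 0.318 to 1.40 CPM. The part of these markers in the results was not tested. In such bulk RNA, fewer cells of a kind and less RNA per cell cannot be told apart. GLCC1 has no row in the files, so that its silencing could not be read. FARP1, the gene around its locus, had 109, 110 and 113 CPM in the control libraries and 63.2, 65.6 and 65.4 CPM in the GLCC1 siRNA libraries.

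The 249 antisense genes held 224952 read pairs, with a median of 279 per gene over the 6 libraries. The 4 with the most pairs, FAM211A-AS1, AFAP1-AS1, OIP5-AS1 and FGD5-AS1, took 32.9% of them. Mean levels ran from 0.594 to 246 CPM with a median of 2.84 CPM, and 205 genes had a mean of at least 1 CPM. CPM is not corrected for gene length, so that levels are compared between libraries and not between genes. Just inside the limit lay CBR3-AS1, SMIM2-AS1 and SSBP3-AS1 with 60 read pairs each, and just outside it TOB1-AS1 with 59 and MYLK-AS1 and SSSCA1-AS1 with 58 each. Since the limit is on a sum over both groups, 19 genes reached it with under 30 pairs in the control group and 3 with under 30 in the GLCC1 siRNA group, whereas 227 had at least 30 in each.

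In GENCODE 44 on GRCh37, 245 of the 249 were placed, 193 under the same symbol and 52 under a later name, of which 33 now end in -DT. For 241 of them the sense partner was placed too, and it lay on the opposite strand in all 241. Of the 245, 234 are annotated as lncRNA and 6 as protein-coding genes today, among them RPA3-AS1, now UMAD1, and FAM83H-AS1, now IQANK1. In 45 pairs the genes started head to head without overlapping, in 86 they started head to head and overlapped, and in 48 they overlapped tail to tail. The antisense gene lay wholly inside the partner in 44 pairs and the partner inside the antisense gene in 18, while 8 pairs were not placed.

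The pairs that start head to head without overlap share the stretch between their start sites, which is printed here for 7 such pairs in which both genes changed, to show that pairs with such a shared stretch moved in either manner. They were chosen after their values were seen. Each sequence is from the GRCh37 genome, is read 5′ to 3′ on the strand of the sense gene and runs from the base after the antisense start to the base before the sense start. Capitals mark GGGCGG (the GC box), CCAAT (the CCAAT box) and CACGTG (the E-box, a word that c-Myc and related factors bind), on either strand. In the first 4 pairs the antisense gene rose and the sense gene fell, at chr15:44829245-44829322 (EIF3J), chr7:23145323-23145376 (KLHL7), chr15:40331383-40331442 (SRP14, minus strand) and chr16:2802602-2802626 (SRRM2). In the last 3 both genes rose, at chr7:77325608-77325775 (RSBN1L), chr6:96025327-96025360 (MANEA) and chr2:109745387-109745660 (SH3RF3).
EIF3J: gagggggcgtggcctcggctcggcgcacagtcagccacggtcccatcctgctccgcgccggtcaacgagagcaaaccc
KLHL7: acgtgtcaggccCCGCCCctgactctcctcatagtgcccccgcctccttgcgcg
SRP14: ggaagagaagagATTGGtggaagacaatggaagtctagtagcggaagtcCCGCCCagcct
SRRM2: gcgacgcgcgtttgcgtgctgacgc
RSBN1L: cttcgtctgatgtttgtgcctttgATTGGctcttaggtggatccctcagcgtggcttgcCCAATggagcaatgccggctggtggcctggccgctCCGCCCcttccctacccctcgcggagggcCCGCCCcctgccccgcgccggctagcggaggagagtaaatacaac
MANEA: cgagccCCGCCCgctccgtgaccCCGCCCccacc
SH3RF3: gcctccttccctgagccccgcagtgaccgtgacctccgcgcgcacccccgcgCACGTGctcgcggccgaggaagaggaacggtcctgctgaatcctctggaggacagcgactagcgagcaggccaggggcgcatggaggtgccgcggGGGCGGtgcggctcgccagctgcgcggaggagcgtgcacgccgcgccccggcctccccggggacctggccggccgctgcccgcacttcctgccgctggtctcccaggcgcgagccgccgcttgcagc

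The GC box lay in the printed stretches of KLHL7, SRP14, RSBN1L, MANEA and SH3RF3, and in neither that of EIF3J nor that of SRRM2. It also lay in those of BAIAP2, GMDS and TMCC1, opposite pairs that are not printed. Of 7 opposite pairs no more than 300 bases apart, 5 thus held it, as did each printed pair in which both genes rose. Among the stretches upstream of 35284 placed genes, cut to the same length, the share with a GC box was 16.0% for KLHL7, 17.3% for SRP14, 28.1% for RSBN1L, 9.93% for MANEA and 32.2% for SH3RF3. The E-box was found in the stretch of SH3RF3 alone, and 5.59% of stretches of its length hold it. The CCAAT box lay in that of BAIAP2, with 2 matches, and in those of SRP14 and RSBN1L, against 31.1%, 9.57% and 24.3% of stretches of their lengths. In the window from 250 bases before to 50 bases after their starts, the placed members had a mean GC content of 62.0%, against 53.2% over all placed genes, and the 45 members that start head to head apart from their partner had 70.9%. The 35284 placed genes were taken without a limit on read pairs, whereas each member had at least 60. The part of this limit in the differences from all placed genes was not tested. GC boxes were present in 55.9% of the members' windows (137 of 245) against 33.9%. Among the 45 members that start head to head apart, 73.3% had one (33 of 45). TATAAA was in 8.98% of the members' windows against 16.4%. The CCAAT box was in 31.0% of the windows against 36.9%, the ETS word CCGGAAG in 11.8% against 7.39%, and the E-box in 9.80% against 6.17%. The E-box was in the windows of 24 of the 245 placed members, 12 of 83 that rose and 9 of 149 that were not called. The others with it were members that fell. Between members that rose and members not called, the GC box was in 60.2% against 54.4% and the CCAAT box in 25.3% against 32.2%. The ETS word was in 10.8% against 12.1% and TATAAA in 7.23% against 9.40%. These shares were not tested against each other.

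More antisense genes rose than fell in the GLCC1 siRNA libraries, although most did not pass the test. With the quasi-likelihood test of edgeR and an adjusted p under 0.05 over all 23074 genes tested, 85 of the 249 rose and 13 fell. Over all genes tested, 14.9% rose and 16.7% fell, and among the 16214 genes with at least 60 read pairs, the limit used for the members, 19.6% rose and 23.2% fell. The median log2 fold change of the members was 0.36, against 0.03 over all genes tested. With library totals as the only scaling the median of all genes moved to 0.15 and that of the members to 0.48, while 101 rose and 9 fell. Of the 85 rises, 36 were above a log2 fold change of 1, whereas 4 of the 13 falls were below -1. The 151 members that did not pass had a positive value in 104 cases and a negative value in 47.

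The same was seen in single libraries. The median over the members of the log2 ratio to the control mean was 0.26, 0.30 and 0.31 in the GLCC1 siRNA libraries, whereas it lay between -0.02 and 0.02 in the control libraries. All 3 GLCC1 siRNA libraries lay above all 3 control libraries for 103 members and below them for 23. Of all genes tested, 22.3% lay above and 24.0% below. Summed over the members, the level was 2189, 2187 and 2161 CPM in the control libraries and 2347, 2428 and 2344 CPM in the GLCC1 siRNA libraries, so that the sum rose by less than the median gene. The 66 members with at least 600 read pairs, for which the fold change had a median standard error (SE) of 0.13 on the log2 scale, included 34 that rose and 9 that fell. Among the 183 with fewer than 600 pairs, where that median was 0.28, 51 rose and 4 fell. Of the 227 members with at least 30 pairs in each group, 75 rose and 12 fell, and of all 15526 genes with as many pairs in each group, 19.3% rose and 23.7% fell.

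**Figure D1:**
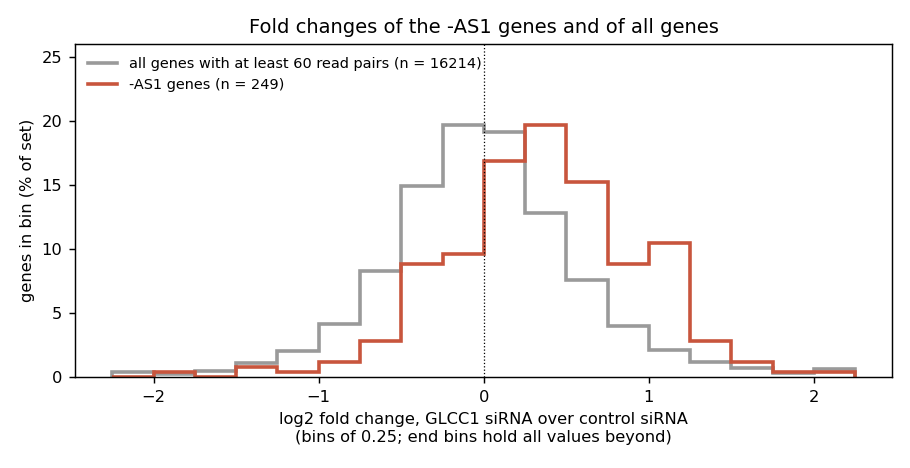
Distribution of log2 fold changes (x axis, GLCC1 siRNA over control siRNA, bins of 0.25) as the percent of genes in each bin (y axis), for the 249 antisense genes and for 16214 genes with at least 60 read pairs. The curve of the antisense genes lies to the right of that of all genes, with a median of 0.36.

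The 6 largest rises among members that averaged 1 CPM or more and whose groups did not overlap were those of EXTL3-AS1, CPB2-AS1, TMPO-AS1, INTS6-AS1, TAPT1-AS1 and DLX6-AS1. EXTL3-AS1 lies inside EXTL3, a glycosyltransferase gene of heparan sulfate synthesis. It had 0.617, 0.992 and 1.39 CPM in the control libraries and 3.13, 3.18 and 3.24 CPM in the GLCC1 siRNA libraries (log2 fold change 1.65, SE 0.26, adjusted p = 3.1e-04 from edgeR). EXTL3 itself rose by less, from 41.5, 45.2 and 49.6 CPM to 67.9, 60.3 and 68.2 CPM, with a log2 fold change of 0.53. The level of EXTL3-AS1 thus rose over that of its partner in every GLCC1 siRNA library, and the log2 ratio within a library changed by 1.19 (SE 0.26, two-sided exact permutation p = 0.1, the smallest that 3 against 3 libraries allow). How much unspliced RNA of EXTL3 was counted on EXTL3-AS1 was not tested.

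TMPO-AS1 starts head to head with TMPO, the gene of the nuclear lamina protein lamina-associated polypeptide 2, at chr12:98906751-98910200, minus strand. It had 4.05, 2.87 and 3.31 CPM in the control libraries and 10.2, 6.60 and 8.11 CPM in the GLCC1 siRNA libraries, and rose by a log2 fold change of 1.31 (SE 0.19, adjusted p = 1.7e-04 from edgeR). TMPO ran at 365, 329 and 352 CPM in the control libraries and at 358, 494 and 364 CPM in the GLCC1 siRNA libraries, which overlap, and was not called (adjusted p = 0.17 from edgeR). DLX6-AS1, at chr7:96584453-96643400, minus strand, spans DLX6, a homeobox gene of forebrain and craniofacial development. Its levels were 10.9, 9.42 and 9.27 CPM against 20.8, 24.6 and 22.2 CPM, the change with the lowest adjusted p of these 6 (log2 fold change 1.19, SE 0.12, adjusted p = 6.9e-06 from edgeR). DLX6 rose too, by 0.59 on the log2 scale, from 6.65, 5.40 and 6.08 CPM to 9.59, 9.23 and 8.33 CPM.

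INTS6-AS1 starts head to head with INTS6, a subunit gene of the Integrator complex that processes small nuclear RNAs. Its levels went from 1.51, 1.27 and 1.45 CPM to 3.23, 3.98 and 2.80 CPM (log2 fold change 1.23, adjusted p = 9.3e-04 from edgeR), while INTS6 rose by 0.43. CPB2-AS1 spans CPB2, which codes for a carboxypeptidase that slows fibrinolysis and which had at most 0.615 CPM in any library. It had 0.960, 0.882 and 0.843 CPM in the control libraries and 2.29, 2.62 and 1.96 CPM in the GLCC1 siRNA libraries (log2 fold change 1.34, adjusted p = 0.0013 from edgeR). TAPT1-AS1 had 1.10, 1.21 and 1.14 CPM against 2.03, 3.10 and 2.96 CPM (log2 fold change 1.20, adjusted p = 0.0024 from edgeR), and TAPT1, a gene needed for cilia, was not called (log2 fold change 0.17). Among the partners of these 6, EXTL3, INTS6 and DLX6 rose while CPB2, TMPO and TAPT1 were not called.

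Among the largest falls by the same rule were those of UNC5B-AS1, ADORA2A-AS1, RPA3-AS1, FAM222A-AS1 and DYNLL1-AS1. UNC5B-AS1 lies with all its exon bases in an intron of UNC5B, a netrin receptor gene, at chr10:72976977-72978051, minus strand. It had 2.13, 2.42 and 2.65 CPM in the control libraries and 0.678, 0.477 and 0.615 CPM in the GLCC1 siRNA libraries, the largest fall of any member (log2 fold change -1.99, SE 0.28, adjusted p = 1.0e-04 from edgeR). UNC5B ran at 54.6, 59.8 and 56.6 CPM against 47.5, 43.2 and 52.9 CPM, without overlap, but was not called (log2 fold change -0.25, adjusted p = 0.067 from edgeR). Without GLCC1 siRNA replicate 2 or 3, UNC5B passed downwards (adjusted p = 0.020 and 0.034 from edgeR). The log2 ratio of UNC5B-AS1 to UNC5B changed by -1.72 with no overlap between the groups.

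RPA3-AS1 starts within RPA3, which codes for the smallest subunit of the single-strand DNA-binding protein RPA, and is annotated today as UMAD1, a protein-coding gene. Its level was 24.5, 25.2 and 23.0 CPM against 13.9, 11.8 and 10.3 CPM (log2 fold change -1.01, SE 0.12, adjusted p = 3.6e-05 from edgeR). RPA3 had 47.5, 43.8 and 42.0 CPM against 41.4, 47.4 and 40.0 CPM, which overlap. DYNLL1-AS1, now named NRAV, had 14.2, 14.8 and 13.6 CPM against 9.02, 9.23 and 9.29 CPM (log2 fold change -0.63, adjusted p = 8.6e-04 from edgeR), and DYNLL1, a dynein light chain gene, was not called (log2 fold change -0.22).

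ADORA2A-AS1 overlaps the adenosine receptor gene ADORA2A and had 2.13, 2.04 and 1.39 CPM in the control libraries and 0.991, 0.318 and 0.727 CPM in the GLCC1 siRNA libraries (log2 fold change -1.36, SE 0.35, adjusted p = 0.0090 from edgeR). FAM222A-AS1 had 2.81, 1.60 and 2.17 CPM against 1.04, 1.03 and 1.57 CPM (log2 fold change -0.82, SE 0.29, adjusted p = 0.045 from edgeR), and it no longer passed without control replicate 1, control replicate 3 or GLCC1 siRNA replicate 1 (adjusted p = 0.19, 0.11 and 0.14 from edgeR). TRIM31-AS1, named after its values were seen because its mean was under 1 CPM, reached the limit through the control group, with under 30 read pairs in the GLCC1 siRNA group, and fell by 1.43 on the log2 scale and was the fourth member to fall by more than 1.

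**Figure D2:**
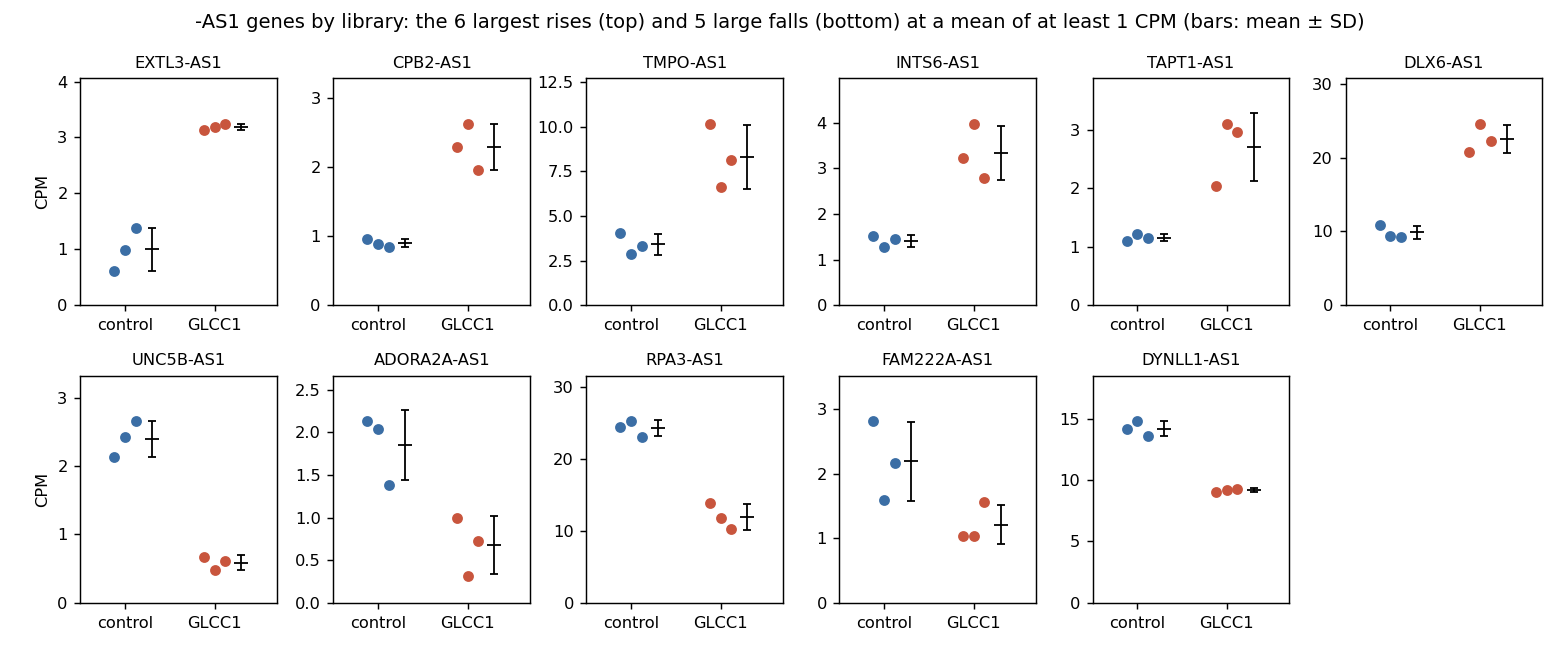
Levels in CPM (y axis of each panel, from 0) of the 6 members with the largest rises and of 5 with large falls, with 1 point per library and the mean ± SD (n = 3) beside the points of each group. In each panel the 3 control libraries and the 3 GLCC1 siRNA libraries do not overlap, as the rule that chose these members requires.

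Of the 5 members with the highest mean CPM, 3 fell and 2 did not pass. The next in this order, ADIRF-AS1, named after its values were seen, went from 56.2, 74.4 and 57.5 CPM to 96.0, 77.9 and 100.1 CPM and rose (log2 fold change 0.54, SE 0.12, adjusted p = 0.0041 from edgeR). Its partner ADIRF is listed at 0 in every library. FAM211A-AS1, now named SNHG29 as a host gene of small nucleolar RNAs, had 274, 282 and 287 CPM in the control libraries and 216, 195 and 219 CPM in the GLCC1 siRNA libraries (log2 fold change -0.42, SE 0.08, adjusted p = 0.0011 from edgeR). FAM211A fell with it, by 0.56 on the log2 scale, and their log2 ratio changed by 0.13 with overlap between the groups. AFAP1-AS1, described as raised in several carcinomas, had 251, 244 and 251 CPM against 212, 190 and 199 CPM (log2 fold change -0.31, SE 0.08, adjusted p = 0.0072 from edgeR). With library totals as the only scaling AFAP1-AS1 did not pass (adjusted p = 0.081 from edgeR).

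OIP5-AS1, a cytoplasmic RNA known as cyrano that binds a microRNA, had 152, 139 and 140 CPM against 133, 179 and 132 CPM. It was not called (log2 fold change 0.04, adjusted p = 0.79 from edgeR). GLCC1 siRNA replicate 2 lay above and the other GLCC1 siRNA libraries below all controls, and OIP5-AS1 was not called without that library either. FGD5-AS1 had 140, 133 and 134 CPM against 129, 142 and 128 CPM and was not called either (log2 fold change -0.02, SE 0.08, adjusted p = 0.85 from edgeR). THAP9-AS1, which starts head to head with THAP9, a gene derived from a DNA transposase, had 87.4, 90.3 and 86.1 CPM against 64.3, 83.5 and 61.6 CPM (log2 fold change -0.34, adjusted p = 0.033 from edgeR). Its fall did not pass when any library other than GLCC1 siRNA replicate 2 was left out (adjusted p between 0.090 and 0.13 from edgeR).

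Of 16 antisense genes listed for this work by name, 9 were members and include OIP5-AS1, FGD5-AS1 and TMPO-AS1 above. ZEB1-AS1 starts head to head with ZEB1, a repressor of epithelial genes in the epithelial-mesenchymal transition. It had 8.78, 9.64 and 8.79 CPM in the control libraries and 12.8, 10.6 and 11.6 CPM in the GLCC1 siRNA libraries (log2 fold change 0.37, SE 0.13, adjusted p = 0.039 from edgeR), and passed only when all libraries or all but GLCC1 siRNA replicate 2 were used. ZEB1 had 25.3, 25.8 and 26.3 CPM against 44.8, 52.7 and 44.1 CPM and rose by more, with a log2 fold change of 0.87 (adjusted p = 2.2e-05 from edgeR). The log2 ratio of ZEB1-AS1 to ZEB1 thus fell by 0.51, without overlap between the groups. EPB41L4A-AS1, a host gene of a small nucleolar RNA, had 12.8, 11.7 and 15.3 CPM against 8.03, 7.48 and 11.8 CPM, where the groups overlap (log2 fold change -0.53, adjusted p = 0.031 from edgeR), and did not pass without control replicate 1, control replicate 3 or GLCC1 siRNA replicate 1 (adjusted p = 0.065, 0.16 and 0.12 from edgeR). MAPKAPK5-AS1, GAS6-AS1 and HNRNPU-AS1 were not called, with log2 fold changes of -0.13, 0.08 and 0.24.

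Of 17 members in a list of antisense genes from the literature on cancer cells, which does not hold AFAP1-AS1, 6 rose (TMPO-AS1, DLX6-AS1, DDX11-AS1, MCM3AP-AS1, NUTM2A-AS1 and ZEB1-AS1), 2 fell (EPB41L4A-AS1 and HOXD-AS1) and 9 did not pass, with a median log2 fold change of 0.08, which is below the median of all 249 members. HOXD-AS1, now HAGLR, lies in the HOXD cluster and had 22.4, 22.4 and 22.0 CPM against 15.1, 14.6 and 16.2 CPM (log2 fold change -0.54, adjusted p = 0.0012 from edgeR). DDX11-AS1 starts 13 bases from DDX11, a helicase gene of sister chromatid cohesion, and had 1.71, 1.60 and 1.45 CPM against 4.01, 3.58 and 3.02 CPM (log2 fold change 1.16, adjusted p = 9.1e-04 from edgeR). DDX11 had 104, 99.6 and 102 CPM against 103, 87.3 and 102 CPM and was not called. HOXD-AS1 and DDX11-AS1 were named after their values were seen.

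The counts of the lists below stand beside those of all 249 members, of which 34.1% rose and 5.22% fell. Of all 242 partners tested, 25.6% rose and 23.1% fell. Grouped by what the partner does, 12 of 14 members whose partner acts in transcription, RNA processing or translation rose and 1 fell, with a median log2 fold change of 0.81. SETD5-AS1, now named THUMPD3-AS1, went from 28.5, 22.3 and 23.4 CPM in the control libraries to 36.1, 43.9 and 38.8 CPM in the GLCC1 siRNA libraries (log2 fold change 0.68, adjusted p = 5.7e-04 from edgeR), while SETD5, a chromatin factor gene, was not called (log2 fold change 0.18). The other two were HNRNPU-AS1, which was not called, and NOP14-AS1, which fell by 0.44 on the log2 scale. Among the 14 partners 4 rose and 4 fell. NUTM2A and TMEM161B, whose antisense genes are among the 12, are not known for such a role. When single libraries were left out, between 9 and 12 of the 14 rose.

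Of 23 members beside transcription factors or corepressors, 10 rose and 2 fell, and of the 21 partners tested 14 rose and 2 fell. DESeq2 called 5 of these 10 rises. MLLT4, which codes for the cell-junction protein afadin, and the pseudogene ZNF252P are not known for such a role, and their antisense genes were not called. THAP9, derived from a transposase, is in this list too, and THAP9-AS1 is 1 of the 2 falls. PAX8-AS1, at 46.4, 48.7 and 43.7 CPM against 46.7, 47.3 and 49.6 CPM, was not called. PAX8, a paired-box factor gene, rose by 0.48 on the log2 scale, which did not pass when any of the controls or GLCC1 siRNA replicate 1 was left out (adjusted p between 0.067 and 0.082 from edgeR). Of 12 members in a list for genes of DNA replication, repair or cell division, 4 rose, among them MCM3AP-AS1 with 11.5, 10.5 and 11.3 CPM against 18.2, 17.2 and 16.3 CPM (log2 fold change 0.64). CCNT2 and PSMD5, whose antisense genes are in this list, are not known for such a role. PSMD5-AS1, which stands both in this list and in the next, had 24.4, 26.2 and 22.8 CPM against 24.2, 26.6 and 25.7 CPM and was not called, while PSMD5, a proteasome assembly gene, fell by 0.47 on the log2 scale.

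Of 24 members beside genes of protein folding, degradation or membrane traffic, 7 rose, whereas 8 of the partners fell and 4 rose. TAPT1-AS1 is among the 7, although TAPT1 is known for cilia, and so is VIM-AS1, although vimentin, its partner, is an intermediate filament protein, and like KLHL7-AS1, also among the 7, it had under 30 read pairs in the control group and reached the limit through the GLCC1 siRNA group. VPS9D1-AS1, studied in colorectal cancer as MYU, had 13.9, 13.7 and 13.3 CPM against 17.7, 10.1 and 16.5 CPM and was not called. Without GLCC1 siRNA replicate 2, which lay below all controls, VPS9D1-AS1 passed upwards. Of 19 members in a list for kinases, receptors, GTPase regulators or ligands, 3 rose and 1 fell, and of their partners 2 rose and 7 fell. FAM83H, DLGAP1, SOCS2 and TRAF3IP2, whose antisense genes are in this list, are none of these. GNG12, a G protein subunit gene named after its values were seen, went from 143, 139 and 138 CPM to 42.8, 53.7 and 39.9 CPM (log2 fold change -1.62, adjusted p = 2.3e-07 from edgeR), while GNG12-AS1, with 1.44, 1.54 and 1.93 CPM against 1.82, 4.45 and 2.35 CPM, overlapped between the groups and was not called. Without GLCC1 siRNA replicate 1, GNG12-AS1 passed upwards (log2 fold change 1.01, adjusted p = 0.024 from edgeR).

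Of 21 members beside metabolic enzymes, transporters or mitochondrial proteins, 8 rose. COX10-AS1, which starts next to the heme A synthesis gene COX10, had 13.6, 13.1 and 16.3 CPM against 20.7, 20.9 and 21.1 CPM (log2 fold change 0.54, adjusted p = 0.0024 from edgeR), and COX10 was not called. SLC2A1-AS1 and SLC16A1-AS1, named after their values were seen, stand beside the glucose transporter gene SLC2A1 and the lactate transporter gene SLC16A1. SLC16A1-AS1 rose from 2.88, 2.65 and 2.41 CPM to 3.86, 4.53 and 4.81 CPM (log2 fold change 0.73, adjusted p = 0.0071 from edgeR) while SLC16A1 fell from 785, 740 and 789 CPM to 545, 608 and 526 CPM (log2 fold change -0.46, adjusted p = 5.9e-04 from edgeR). SLC2A1-AS1 had 6.92, 9.86 and 9.70 CPM against 8.03, 10.8 and 10.2 CPM and was not called, whereas SLC2A1 fell by 0.88 on the log2 scale, so that the log2 ratio of SLC2A1-AS1 to SLC2A1 rose by 1.03. PXN, OGFR, PPP1R26 and TTN, whose antisense genes are in this list, code for no metabolic enzyme or transporter, and PPP1R26-AS1 and TTN-AS1 are among the 8, as is CPB2-AS1, whose partner acts in fibrinolysis.

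By the test of edgeR, none of the members of the lists on replication, on folding and traffic and on metabolism fell. Over all members 5.22% fell, so that no fall in lists of 12, 24 and 21 members is near the members' own share. At an unadjusted p under 0.05, 1 member of the list on folding and traffic fell and 0 of the other two lists, and DESeq2 called 0 falls in each of the 3. In a list of 3 members that host small nucleolar RNAs, MCM3AP-AS1 rose, EPB41L4A-AS1 fell and TRAM2-AS1 was not called. The list does not hold FAM211A-AS1, also such a host gene, which fell by 0.42 on the log2 scale.

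STK24-AS1 is the member closest to the silenced locus, since STK24, a kinase gene, neighbours FARP1 on chromosome 13. With 6, 3 and 4 read pairs in the control libraries and 17, 24 and 11 in the GLCC1 siRNA libraries, it was close to the limit of 60 and reached it through the GLCC1 siRNA group. Its log2 fold change was 2.0 (SE 0.54, adjusted p = 0.011 from edgeR), which did not pass without control replicate 2 (adjusted p = 0.062 from edgeR). STK24 went from 203, 213 and 197 CPM to 273, 275 and 270 CPM and rose by 0.42 on the log2 scale (adjusted p = 8.4e-04 from edgeR). FARP1 fell by 0.77 (SE 0.08), and FARP1-AS1, with 3 read pairs in all, was far below the limit.

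To ask whether antisense genes and their partners moved together, the 242 pairs with both genes tested were compared. Among the partners 62 rose and 56 fell. Their median change was 0.02 on the log2 scale, against 0.36 for the members. In 31 pairs both genes rose and in 3 both fell. In 16 pairs the antisense gene rose and the sense gene fell, and in 3 pairs the reverse was found. In 35 pairs the antisense gene rose and the partner was not called, in 6 the antisense gene fell with an uncalled partner, in 65 the partner alone was called and in 83 neither gene was called. For 10297 pairs of genes with at least 60 read pairs each, taken as the nearest starts on opposite strands, both genes changed in the same direction in 12.1% and in opposite directions in 8.51%. Of the 242 antisense pairs, 14.0% and 7.85% were of these kinds, near those shares. Pearson's r between the log2 fold changes of the genes of a pair was 0.19 over the 242 pairs (Spearman's rho 0.19), and 0.18 over the 188 pairs with means of at least 1 CPM. Both genes of a pair share the libraries, and pairs are not independent replicates.

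The counts of pairs rest on few libraries. The 19 opposite pairs became 11, 10 and 6 without control replicates 1, 2 and 3 and 12 without GLCC1 siRNA replicate 1. The 34 pairs of the same direction became 21 and 20 without control replicates 2 and 3, and the 62 rises of partners became 40 without control replicate 1.

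The ratio of the antisense to the sense count within a library does not depend on library size. Its change had a median of 0.38 on the log2 scale over the 242 pairs. The ratio was higher in all GLCC1 siRNA libraries than in all control libraries in 103 pairs and lower in 29, and over the 10297 nearest pairs the groups did not overlap in 60.3%. Pairs chosen for a raised antisense or a lowered sense gene have a higher ratio by that choice, so that the ratios of such pairs are given as descriptions.

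The 4 opposite pairs with the largest changes of both genes at means of at least 1 CPM were those of EIF3J, EMC3, DICER1 and IQCH. EIF3J codes for a subunit of translation initiation factor 3, and EIF3J-AS1, now EIF3J-DT, starts 79 bases from it in the other direction, across the stretch printed above. EIF3J-AS1 had 6.99, 6.17 and 5.42 CPM in the control libraries and 11.7, 15.3 and 12.2 CPM in the GLCC1 siRNA libraries (log2 fold change 1.07, SE 0.15, adjusted p = 1.1e-04 from edgeR). EIF3J had 150, 130 and 138 CPM against 68.5, 90.8 and 73.4 CPM (log2 fold change -0.85, SE 0.11, adjusted p = 5.2e-05 from edgeR). Neither gene overlapped between the groups, and the log2 ratio rose by 1.92 (SE 0.09).

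DICER1 codes for the nuclease that makes microRNAs from their hairpins, and DICER1-AS1 starts head to head with it at chr14:95623982-95647812. DICER1-AS1 went from 6.72, 6.94 and 6.93 CPM to 13.0, 10.4 and 10.9 CPM (log2 fold change 0.74, SE 0.13, adjusted p = 8.0e-04 from edgeR). DICER1 fell from 168, 162 and 171 CPM to 82.4, 95.7 and 77.0 CPM (log2 fold change -0.98, SE 0.09, adjusted p = 4.4e-06 from edgeR). The groups did not overlap for either gene. Of the exon bases of DICER1-AS1, 93.0% lie outside DICER1 and 1.52% in its exons, so that few of its bases are shared with the partner.

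EMC3 codes for a subunit of the membrane protein complex of the endoplasmic reticulum, and EMC3-AS1, annotated as a transcribed pseudogene, lies with all its exon bases in introns of EMC3, so that its counts are uncertain where reads also match the parent copy. EMC3-AS1 went from 9.74, 10.5 and 10.7 CPM to 17.5, 19.0 and 18.0 CPM (log2 fold change 0.81, adjusted p = 9.2e-05 from edgeR) as EMC3 fell from 40.5, 38.8 and 41.9 CPM to 23.5, 20.4 and 19.5 CPM (log2 fold change -0.93, adjusted p = 1.6e-05 from edgeR). IQCH-AS1 had 6.31, 5.62 and 5.24 CPM against 8.65, 9.86 and 7.94 CPM (log2 fold change 0.62, adjusted p = 0.0051 from edgeR). IQCH, which codes for a protein with a calmodulin-binding motif, had 6.38, 6.56 and 7.11 CPM against 4.64, 4.22 and 4.98 CPM (log2 fold change -0.53, adjusted p = 0.014 from edgeR) and did not pass without control replicate 3 (adjusted p = 0.074 from edgeR). In these 4 pairs the higher antisense level and the lower sense level were seen in each GLCC1 siRNA library.

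The 4 pairs with the largest changes of both genes in the same direction were those of MEF2C, ZBED3, SH3RF3 and LBX2, and in all 4 both genes rose and the genes start head to head. MEF2C-AS1 went from 0.823, 1.38 and 0.903 CPM to 1.77, 3.02 and 2.46 CPM (log2 fold change 1.17, SE 0.29, adjusted p = 0.0075 from edgeR), and MEF2C, a muscle and neural transcription factor gene, from 19.8, 18.6 and 18.4 CPM to 37.4, 52.7 and 37.8 CPM (log2 fold change 1.16, SE 0.13, adjusted p = 2.1e-05 from edgeR). Their ratio changed by 0.05 on the log2 scale, with overlap between the groups (two-sided exact permutation p = 0.9).

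ZBED3-AS1 had 1.65, 1.76 and 2.41 CPM against 4.17, 4.22 and 4.20 CPM (log2 fold change 1.11, adjusted p = 8.3e-04 from edgeR), and ZBED3, which codes for an Axin-binding zinc finger protein of Wnt signalling, rose by 0.88. SH3RF3-AS1 had 2.06, 1.98 and 2.47 CPM against 3.86, 4.14 and 3.92 CPM (log2 fold change 0.87, adjusted p = 0.0029 from edgeR), and SH3RF3, a ubiquitin ligase gene, went from 18.6, 20.7 and 17.4 CPM to 40.7, 33.3 and 39.3 CPM (log2 fold change 1.00). LBX2-AS1 had 5.69, 6.50 and 5.72 CPM against 10.6, 9.70 and 10.7 CPM (log2 fold change 0.79, adjusted p = 4.5e-04 from edgeR), and LBX2, a homeobox gene, rose by 0.86. The ratios of these 3 pairs changed by 0.24, -0.13 and -0.05 on the log2 scale, each with overlap between the groups.

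**Figure D3:**
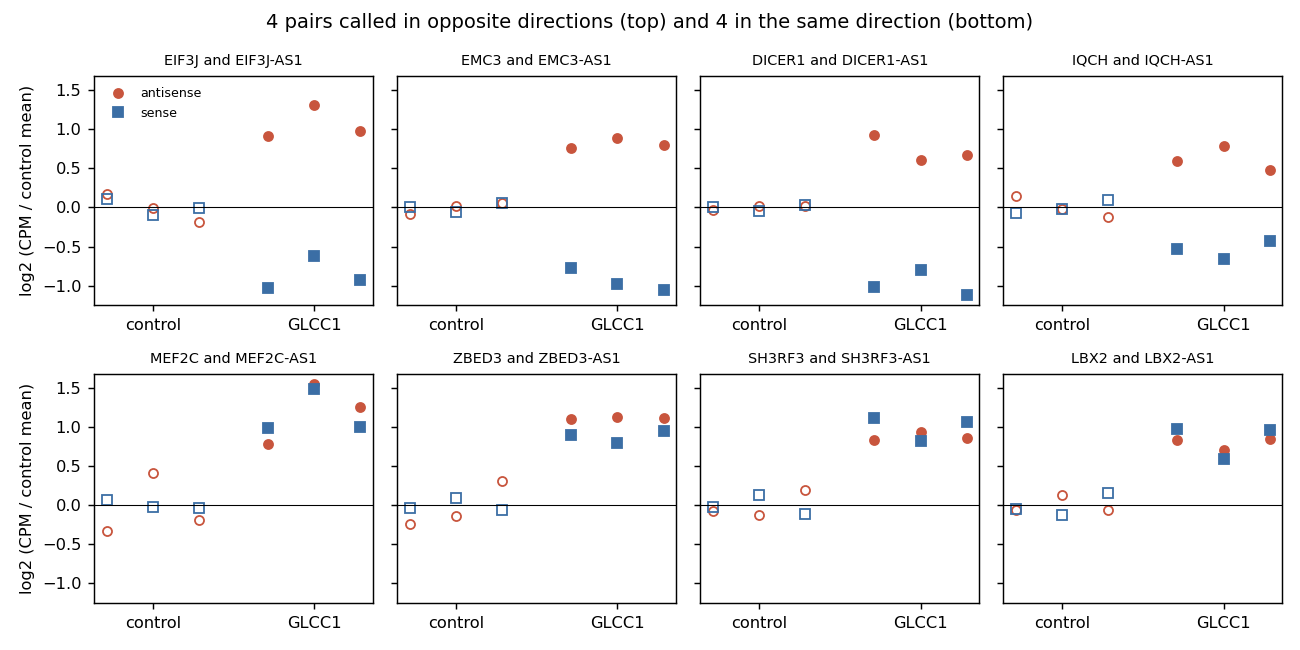
Level of the antisense gene (circles) and of its sense partner (squares) in each library, as log2 of CPM over the mean of the control libraries (y axis), with the 3 control libraries left (open symbols) and the 3 GLCC1 siRNA libraries right (filled). In the upper 4 pairs circles rise above and squares fall below 0 in each GLCC1 siRNA library, and in the lower 4 both rise.

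Of the 13 members that fell, 3 stood beside a partner that rose (AFAP1-AS1, THAP9-AS1 and FAM222A-AS1) and 3 beside a partner that fell, among them FAM211A-AS1 and TRIM31-AS1. The rise of FAM222A (log2 fold change 0.48, adjusted p = 0.044 from edgeR) did not pass when any library other than GLCC1 siRNA replicate 2 was left out (adjusted p between 0.10 and 0.16 from edgeR), and the fall of TRIM31 did not pass without control replicate 2 (adjusted p = 0.055 from edgeR). THAP9 went from 11.0, 12.1 and 11.7 CPM to 17.0, 22.1 and 16.9 CPM, a log2 fold change of 0.67 (adjusted p = 0.0013 from edgeR). The log2 ratio of THAP9-AS1 to THAP9 fell by 1.02 (SE 0.04), with no overlap between the groups. AFAP1, which codes for an actin filament-associated protein, rose from 38.1, 40.2 and 38.4 CPM to 49.8, 43.7 and 46.7 CPM (log2 fold change 0.27, adjusted p = 0.040 from edgeR), but did not pass when any library other than GLCC1 siRNA replicate 2 was left out (adjusted p between 0.075 and 0.15 from edgeR). Of the exon bases of AFAP1-AS1, 42.2% lie in exons of AFAP1, so that pairs on these were left out of both counts or cannot be told apart.

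By arrangement, of the 45 members that start head to head apart from their partner 22 rose, and 14 of them rose without control replicate 3. Of the 86 that start head to head and overlap, 37 rose and 3 fell. Of the 48 that overlap tail to tail, 10 rose and 5 fell, of the 44 inside the partner 8 rose and 4 fell, and of the 18 that contain the partner 5 rose. Among the head-to-head members apart from the partner and among those that contain it, none fell by the test of edgeR and 0 by DESeq2. At an unadjusted p under 0.05, 1 of the former and 0 of the latter fell. The median log2 fold change was 0.49 for head-to-head members apart, 0.48 for those that overlap, 0.09 for tail-to-tail members and 0.29 for those inside the partner. These differences between arrangements were not tested. Of the 33 members now named -DT, 16 rose, whereas of their 31 partners tested 5 rose and 11 fell. Over all 249 members 34.1% rose and 5.22% fell, and over all 242 partners tested 25.6% and 23.1%. Of all genes with at least 60 read pairs 19.6% rose and 23.2% fell. The shares of rises among tail-to-tail members (20.8%) and members inside the partner (18.2%) were near that of all these genes. No fall among the 18 that contain the partner is near the share of all members.

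The share of the exon bases that lies in the partner bears on which reads could be counted. Of the 153 members with most exon bases outside the partner, which the partner's reads reach least, 64 rose (41.8%) and 2 fell (1.31%). Over all members these shares were 34.1% and 5.22%. The 2 falls became 7 without GLCC1 siRNA replicate 2 and 1 without GLCC1 siRNA replicate 3 or control replicates 2 or 3. Of the 69 with most exon bases in introns of the partner, 15 rose (21.7%) and 7 fell (10.1%), and the 15 became 9 without control replicate 3. How much unspliced RNA of the partner was counted on these was not tested. Of the 9 with most exon bases in exons of the partner, 1 rose and 2 fell.

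Of 44 tested pairs that start head to head apart, 8 changed in opposite directions and 7 in the same direction. Over the 10297 nearest pairs, 8.51% changed in opposite directions and 12.1% in the same direction. Of the 8 opposite pairs, 7 that lie no more than 300 bases apart were looked at. Beside EIF3J these were BAIAP2, GMDS, KLHL7, SRP14, SRRM2 and TMCC1, named after their values were seen. In each the antisense gene rose and the sense gene fell. BAIAP2-AS1 went from 35.4, 40.0 and 35.8 CPM to 53.5, 49.7 and 51.9 CPM (log2 fold change 0.48, adjusted p = 0.0013 from edgeR), while BAIAP2, an insulin receptor substrate gene of actin remodelling, fell by 0.39 and did not pass without control replicate 2 or 3 (adjusted p = 0.19 and 0.090 from edgeR). SRP14-AS1 had 6.92, 5.68 and 6.14 CPM against 9.70, 8.11 and 8.67 CPM (log2 fold change 0.51), and SRP14, a subunit gene of the signal recognition particle, had 201, 202 and 212 CPM against 136, 131 and 137 CPM (log2 fold change -0.61, adjusted p = 4.7e-05 from edgeR). The rise of SRP14-AS1 did not pass without control replicate 2, control replicate 3 or GLCC1 siRNA replicate 1 (adjusted p = 0.079, 0.062 and 0.065 from edgeR).

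KLHL7-AS1, with 8, 13 and 8 read pairs in the control libraries and 27, 16 and 19 in the GLCC1 siRNA libraries, reached the limit of 60 through the group in which it is high. It had 0.549, 0.716 and 0.482 CPM against 1.41, 1.27 and 1.06 CPM, and KLHL7, which codes for an adaptor of a ubiquitin ligase, 40.4, 36.8 and 39.4 CPM against 24.3, 26.2 and 26.1 CPM. The log2 fold changes were 1.08 and -0.60, and that of KLHL7-AS1 did not pass without control replicate 1, control replicate 3 or GLCC1 siRNA replicate 1 (adjusted p = 0.069, 0.094 and 0.081 from edgeR). SRRM2-AS1 had 5.97, 5.40 and 4.58 CPM against 10.3, 11.0 and 10.7 CPM (log2 fold change 1.00, adjusted p = 1.1e-04 from edgeR). SRRM2, a splicing factor gene, fell by 0.24 on the log2 scale, and TMCC1 by 0.25. SRRM2 did not pass when any control or GLCC1 siRNA replicate 3 was left out (adjusted p between 0.057 and 0.19 from edgeR), nor did TMCC1 when any library but GLCC1 siRNA replicate 2 was left out (adjusted p between 0.063 and 0.17), and with library totals as the only scaling both were lost too (adjusted p = 0.30 and 0.31). GMDS-AS1 rose by 0.72 and TMCC1-AS1 by 1.14 on the log2 scale, and GMDS-AS1 did not pass without control replicates 1 or 3 or GLCC1 siRNA replicates 1 or 3 (adjusted p between 0.065 and 0.11 from edgeR).

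Where both genes rose across a shared stretch, RSBN1L-AS1, now named APTR, had 6.65, 7.11 and 6.14 CPM against 10.6, 12.8 and 10.3 CPM (log2 fold change 0.75, adjusted p = 9.4e-04 from edgeR), and RSBN1L 38.1, 40.5 and 35.7 CPM against 62.5, 76.0 and 58.2 CPM (log2 fold change 0.78). Their log2 ratio changed by -0.02 (SE 0.03). MANEA-AS1 rose by 1.05, a call lost without control replicate 1, control replicate 2 or GLCC1 siRNA replicate 1 (adjusted p = 0.084, 0.081 and 0.075 from edgeR), and MANEA, a mannosidase gene of the Golgi, rose by 0.55.

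The rise was not particular to symbols ending in -AS1. Of 40 tested genes ending in -AS or in -AS2 to -AS9, 15 rose and 3 fell, with a median log2 fold change of 0.55. Of 218 tested LINC genes 52 rose and 8 fell, with a median of 0.59. These sets have no limit of 60 read pairs. Of 241 genes of lncRNA type with at least 60 read pairs and no -AS1 ending, 90 rose and 21 fell, with a median of 0.41. LINC, SNHG and other antisense genes were not taken out of these 241, so that the sets overlap. Of 12723 protein-coding genes with at least 60 read pairs 2498 rose and 3408 fell, with a median of -0.05. Host genes of small nucleolar RNAs named SNHG went the other way, since 7 of 14 fell. None of the 14 rose by edgeR or DESeq2, and 0 had a rise at an unadjusted p under 0.05. Of 39 intronic transcripts ending in -IT, 2 rose and 1 fell. Among the 178 tested -AS1 symbols under the limit of 60 read pairs 8 rose, with a median of 0.40.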

How the data were processed

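The deposited files hold raw counts, 1 file per library, of the read pairs that the authors assigned to each gene symbol, per the labels and the methods of the study with TopHat 2.0.11 on hg19 and HTSeq in union mode. The strand setting of the counting was not given in the sources used here. The tallies that HTSeq appends, 30.0% to 30.9% of a file, stayed out of library sizes and tests. Libraries were grouped by title.

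Genes with fewer than 5 counts summed over each condition were removed, as in the methods of the study, which left 23074 of 56638. Counts were scaled by TMM factors from 0.950 to 1.05 and compared with the robust quasi-likelihood test of edgeR 4.0.16 under R 4.3.3, with Benjamini-Hochberg adjustment over all genes tested, and standard errors were taken from its F statistic. Between 11948790 and 19042516 read pairs per library were on genes, and an antisense gene with at least 600 pairs had a median standard error of 0.13. The log2 ratio of a pair used a pseudocount of 0.5 on counts and a two-sided exact permutation test over the 6 libraries. No pair of libraries of a group was a copy, with a chi-square per degree of freedom of 1.84 to 17.1. The fit was tested on simulated data.

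The members, lists and tests were chosen with earlier results of these data known. Named were the 6 largest rises and falls among called members that averaged 1 CPM or more and whose groups did not overlap, the 5 with the highest mean CPM, up to 4 pairs per direction by the smaller change of the pair, and members of the lists given. A result on 1 of the falls is not reported here. Positions came from GENCODE 44 on GRCh37 and sequences from that genome, with later names looked up in tables of NCBI and RefSeq. Motifs were searched on both strands in 300 bases around each start. Alternatives were DESeq2 1.42.0, its size factors in edgeR, library totals, filters of 1 count in any and of 10 counts in every library, a replicate block, an adjusted p under 0.01, only members with at least 600 pairs, a pseudocount of 1 and each library left out. Counts within arrangements and lists under these fits were added after seeing the data. Other calculations used Python 3.11.15, numpy 2.4.6, pandas 2.3.3, scipy 1.17.1 and matplotlib 3.10.9.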

Additional observations from a re-analysis of the deposited data

How the results depend on the processing

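No called member changed sign under any alternative. The 85 rises and 13 falls ran from 70 to 101 and from 9 to 14 under the other tests, scalings and filters, and from 59 to 98 and from 10 to 18 when single libraries were left out. With an adjusted p under 0.01, 51 members and 40 partners rose, 19 pairs moved together and 6 in opposite directions, and among members with at least 600 read pairs 34 rose. The median of 0.36 became 0.38 with DESeq2, 0.39 with at least 10 counts in every library, which tests 203 members, and 0.48 with library totals. When single libraries were left out it ran from 0.34 to 0.42, rises of partners from 40 to 78, pairs of the same direction from 20 to 47 and opposite pairs from 6 to 26. The causes were not tested.

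Replicate numbers did not pair the libraries, with correlations of deviations of -0.18, -0.32 and -0.01 over 14875 genes. With the replicate block 80 members rose, 78 of them among the 85, and 13 fell, 26 pairs moved together and 16 in opposite directions, and 6522 genes were called in all against 7293.

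The genes that changed sign were not called in the fit that gave the results above. Of them, VPS9D1-AS1 passed upwards without GLCC1 siRNA replicate 2 (adjusted p = 0.0045 from edgeR). With library totals the log2 fold change was 0.0982 for FGD5-AS1, 0.0702 for RPA3, 0.0154 for MAPKAPK5, 0.00178 for COX10, 0.0608 for DDX11 and 0.0869 for NOP14, and with at least 10 counts in every library 0.0147 for FGD5-AS1 and 0.00317 for NOP14. With single libraries left out it ran from -0.11 to 0.12 for OIP5-AS1, from -0.0680 to 0.00546 for FGD5-AS1, from -0.0784 to 0.196 for GAS6-AS1, from -0.0102 to 0.334 for VPS9D1-AS1, from -0.0215 to 0.25 for SLC2A1-AS1, from -0.18 to 0.88 for CPB2, from -0.0183 to 0.232 for VPS9D1, from -0.0986 to 0.0168 for DDX11 and from -0.104 to 0.0121 for NOP14. The other values for single genes kept their direction, with 1186 on the same side of the threshold, 96 no longer past it and 20 newly past it, and all 378 ratio changes moved by less than the spread between replicates. Members with fewer than 600 pairs had a median SE of 0.28, which limits what could be called among them.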
